A study of Danio rerio with 8 samples.

Results

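Muscle contracts when calcium leaves the sarcoplasmic reticulum and relaxes when calcium is pumped back. The genes described here are 8 zebrafish genes of that cycle, taken by their symbols: the calcium release channel genes ryr1a and ryr1b, the calsequestrin genes casq1a, casq1b and casq2, and the calcium pump genes atp2a1, atp2a2a and atp2a2b. All 8 are among the 25279 gene symbols of a bulk RNA count table, and all 8 passed the filter on low counts that left 14107 genes to test. The samples were tail muscle together with the intermuscular bones in it, from zebrafish at 60 days post fertilization. Wild type fish (3 libraries) were set beside fish with the runx2b-/- genotype (3 libraries), and both groups carry the Tg (sp7/eGFP) transgene, in which the promoter of the bone gene sp7 drives a green fluorescent protein. The runx2b gene encodes a transcription factor of bone-forming cells, and the labels do not say what kind of mutation the allele holds, nor whether each library came from a different fish. The p-values therefore speak only for the spread among these 6 libraries, part of which may be technical. A further 2 single-cell samples of the series were not analysed here.

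In skeletal muscle, the ryanodine receptor is the channel through which stored calcium is released, and it opens when a voltage sensor in the adjoining membrane moves. Calsequestrin binds calcium inside the reticulum and so holds the store. The sarcoplasmic reticulum calcium ATPase (SERCA) pumps calcium back, with SERCA1 (atp2a1) typical of fast fibres and SERCA2 (atp2a2a and atp2a2b) of slow fibres and heart. In zebrafish, ryr1a is known from slow and ryr1b from fast fibres, while casq2 is best known in mammals as the calsequestrin of heart and slow fibres.

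Each library held 17280098 to 20482003 counts, of which the 8 genes together took 0.407% to 0.639%. The 13 fast muscle markers in the table summed to 264882 to 392717 CPM (counts per 1000000 of the scaled library size) in wild type and 223935 to 370363 CPM in mutant. Most of this sum came from myhc4, tnnt3b and mylpfa (176894, 76517 and 39750 CPM on average over the 6 libraries). The 12 slow muscle markers summed to 7704 to 10461 CPM in wild type and 8955 to 9031 CPM in mutant, with overlap in both lists. Some single markers lay apart. In the fast list mybpc2b was called higher (log2 fold change 1.70, edgeR adjusted p = 0.0155), 1 of 13 against 1.76% of all tested genes. Mutant libraries lay wholly below wild type for tnni2a.4 and pvalb2 (2 of 13). In the slow list they lay wholly above for tnni1b and prox1a (2 of 12) and wholly below for myl10 (1 of 12), with no call. Of all tested genes, 12.8% lay wholly above and 11.7% wholly below. The 11 heart muscle markers summed to 33.0 to 46.2 CPM in wild type and 35.2 to 39.0 CPM in mutant, also with overlap, and none was at 0 throughout. Most of this sum came from tnni1b, vmhc and tnnt2a (17.3, 12.3 and 8.13 CPM on average over the 6 libraries). Of the 4 that could be tested, none was called: vmhc (log2 fold change 0.17), tnni1b (0.43) and gata4 (1.08) lay above 0 and tnnt2a (-2.29) below. The groups were apart for tnni1b and gata4 (mutant above, 12.8% of all tested genes) and for tnnt2a (mutant below, 11.7%), and tnni1b is counted in the slow list too. With 21 counts over the wild type and 42 over the mutant libraries, gata4 would not have passed the count filter on its wild type libraries. Its fold change therefore depends on the group where it is high. The summed level of the 6 bone markers was lower in every mutant library (2.75 to 9.82 CPM against 34.4 to 50.8 CPM), though the groups overlapped for bglap, spp1 and entpd5a. The sum of the 6 red blood cell markers was higher (1376 to 1591 CPM against 1070 to 1246 CPM), with overlap for hbaa1. The part of these markers in the differences described here was not tested. On the first principal component (44.0% of variance) wild type library 3 lay at -15.4, apart from the other two wild type libraries at -43.0 and -39.2. The mutated gene itself had only 10 counts over the wild type and 12 over the mutant libraries, and with no account of the allele its level is no check of the labels. In bulk tissue, fewer cells of a type and less RNA per cell cannot be told apart.

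None of the 8 genes differed between the genotypes at a Benjamini-Hochberg adjusted p under 0.05 in edgeR's quasi-likelihood test, the threshold for a call here (0 of 8 members, against 3.37% of all tested genes, 1.76% higher and 1.62% lower). An unadjusted p under 0.05 was reached by 2 members, ryr1b and atp2a1 (19.4% of all tested genes), and DESeq2 called 1 of the 8 (4.78% of all tested genes) and limma voom 0 (2.47%). The log2 fold change, mutant minus wild type, was above 0 for 7 of the 8, as it was for 49.2% of tested genes, and its median was 0.32 against -0.01 over all tested genes. Mutant libraries lay wholly above wild type for 3 members, ryr1b, atp2a1 and atp2a2b (12.8% of tested genes did so). Of the 8, 4 (ryr1a, ryr1b, atp2a1 and atp2a2b) fall in the longest of 10 equal length classes of tested genes, a class whose own median log2 fold change was 0.19, and all 3 of those with separated groups are among them. Among the 253 tested genes of at least 10000 bases, 79.1% had a log2 fold change above 0, with a median of 0.28. That set holds ryr1a and ryr1b (16222 and 16566 bases) but not atp2a1 or atp2a2b (6914 and 6737 bases). The part of length in the differences of the members was not tested.

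**Figure D1:**
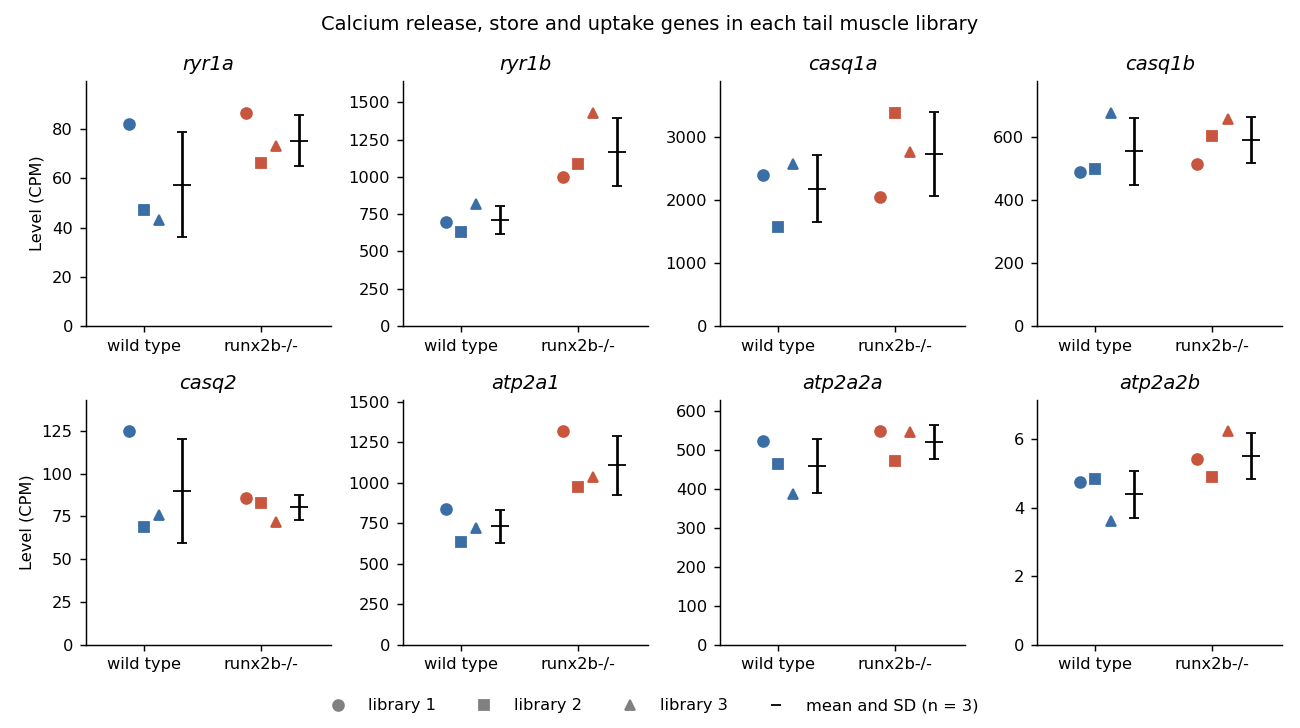
Level in CPM (y axes, from 0) of each of the 8 genes in the 3 wild type (blue) and 3 runx2b-/- (red) libraries, with marker shapes for library numbers and black bars for the mean and SD of each group (n = 3). The groups are apart for ryr1b, atp2a1 and atp2a2b, and overlap for the other 5 genes.

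Compared per length, casq1a held the highest level of the 8, at 840 ± 206 CPM per kilobase in wild type (mean ± SD, n = 3) and 1052 ± 257 in mutant. The second was casq1b, at 235 ± 44.8 in wild type and 250 ± 30.7 in mutant, below casq1a in 6 of 6 libraries. The pumps atp2a1 (105.6 ± 15.02 in wild type, 160 ± 26.6 in mutant) and atp2a2a (112 ± 16.9 and 128 ± 10.7) came next and were not separated in level over the 6 libraries, since atp2a1 was above atp2a2a in 4 of 6. The channel ryr1b stood at 43.0 ± 5.69 in wild type and 70.6 ± 13.8 in mutant, above casq2 (31.4 ± 10.6 and 28.1 ± 2.59) in 5 of 6 libraries. Far lower were ryr1a (3.54 ± 1.32 and 4.64 ± 0.640) and atp2a2b (0.651 ± 0.102 and 0.817 ± 0.0993). Over all 6 libraries the mean level per kilobase of casq1a was 1288 times that of atp2a2b. These levels use the merged exon length of each gene in the table, so a gene with long, seldom used exons reads low.

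A pair of genes outside the 8 bears on how these levels are read. The table lists atp2a1l, named as a gene like atp2a1, on chromosome 12 (13205881 to 13223442, 3701 bases of exon), at 2341 ± 587 CPM per kilobase in wild type and 2693 ± 469 in mutant. It held more counts than atp2a1 in 6 of 6 libraries, up to 15.2 times as many, and 87.7% to 93.7% of the summed level per kilobase of the 4 genes atp2a1, atp2a1l, atp2a2a and atp2a2b. Its groups overlapped, with a log2 fold change of 0.20 (SE 0.21, edgeR adjusted p = 0.646). The third release channel of muscle, ryr3 (chromosome 20, 29365565 to 29517834), stood at 54.9 ± 8.84 CPM per kilobase in wild type and 69.6 ± 19.4 in mutant, close to ryr1b. It made up 43.3% to 55.6% of the summed level per kilobase of ryr1a, ryr1b and ryr3, and its log2 fold change was 0.34 (SE 0.21, edgeR adjusted p = 0.409). How the count divided reads between atp2a1 and atp2a1l, or among the ryanodine receptor genes, is not given in the sources used here, so the split within each family is uncertain.

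**Figure D2:**
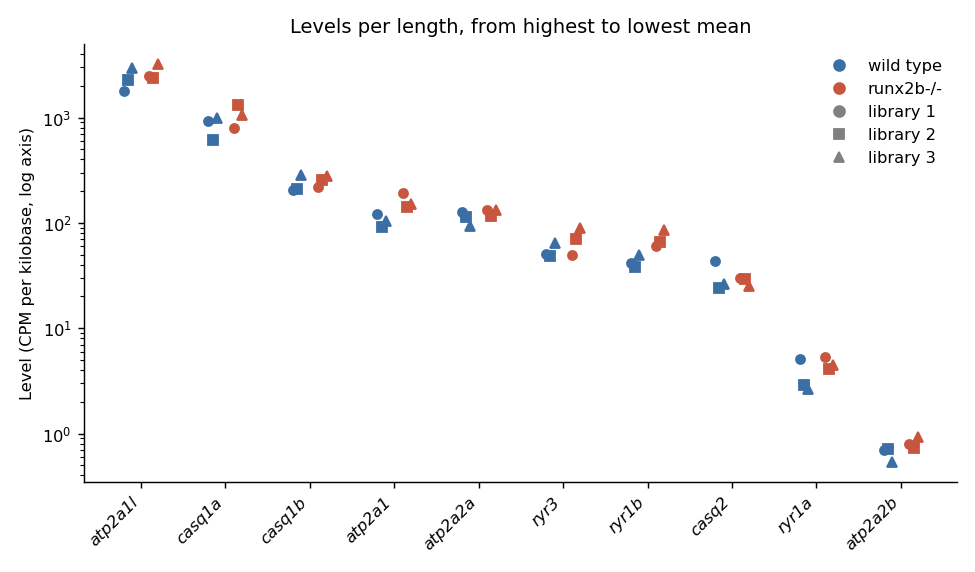
Level in CPM per kilobase of exon (log axis) of the 8 genes with ryr3 and atp2a1l, each in 3 wild type (blue) and 3 runx2b-/- (red) libraries, ordered by the mean over all libraries. Means run from 2517 for atp2a1l and 946 for casq1a to 0.735 for atp2a2b.

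The release channel gene ryr1b (chromosome 18, 35516112 to 35755583, minus strand, 16566 bases of exon) was the member nearest to a call. Wild type libraries 1 to 3 held 694, 629 and 815 CPM of it, and mutant libraries 1 to 3 held 997, 1083 and 1428 CPM. Every mutant library was above every wild type library, with mutant library 3 the highest. The fold was 1.64 (95% interval 1.25 to 2.15), a log2 fold change of 0.71 (SE 0.18, edgeR adjusted p = 0.0521, two-sided exact permutation p = 0.1, the smallest that 3 against 3 libraries can give). The call turned on the setting: it passed with DESeq2 (adjusted p = 0.0159), with no count filter (0.00484), with library size only (0.0494) and without wild type library 3 (0.0286), and it reached 0.234 without wild type library 2. Of the genes tested in each of these settings (14107, 25279, 14107 and 14840), 4.78%, 4.59%, 2.56% and 8.25% were called. With a correction for gene length the log2 fold change was 0.42 (edgeR adjusted p = 0.219), 1 of the 2 largest shifts that this correction made among the 8 genes.

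Its paralog ryr1a (chromosome 10, 33462959 to 33596476, plus strand, 16222 bases of exon) was far rarer, at 0.0524 to 0.121 times the level of ryr1b per kilobase. Wild type libraries 1 to 3 held 82.15, 47.05 and 43.2 CPM of it, and mutant libraries 1 to 3 held 86.55, 66.1 and 73.3 CPM. The groups overlapped because wild type library 1 stood above mutant libraries 2 and 3. That same library had the highest summed level of the slow muscle markers (10461 CPM), whose part in this was not tested. Its log2 fold change was 0.39 (SE 0.24, 95% interval -0.13 to 0.91, edgeR adjusted p = 0.407). With wild type library 1 left out it was 0.73 and was called (edgeR adjusted p = 0.0258), and with the length correction it was 0.08 (0.911). Of the summed level per kilobase of the ryr1 pair, ryr1a made up 5.14% to 10.8% in wild type and 4.98% to 8.14% in mutant.

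The calsequestrin genes, which encode the calcium store protein, did not separate by genotype. casq1a (chromosome 2, 38057524 to 38071766, plus strand) held 2395, 1573 and 2574 CPM in the wild type libraries, in order of their numbers, and 2048, 3381 and 2764 CPM in the mutant ones. Its spread within each group was as wide as the distance between the groups, with an SD of 534 CPM in wild type and 667 CPM in mutant. Between the genotypes the log2 fold change was 0.32 (SE 0.23, 95% interval -0.17 to 0.82, edgeR adjusted p = 0.471). It ran from 0.12 without wild type library 2 to 0.49 without mutant library 1, not called in any setting.

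casq1b (chromosome 7, 73495468 to 73530687, minus strand) differed least between the genotypes, by the size of its fitted change, of the 3. Wild type libraries 1 to 3 held 490, 498 and 678 CPM of it, against 514 (mutant library 1), 606 (2) and 658 CPM (3). The highest and the lowest of the 6 values were both wild type. A log2 fold change of 0.09 (SE 0.18, 95% interval -0.29 to 0.48, edgeR adjusted p = 0.822) was fitted, with an interval that holds folds from 0.818 to 1.39. A gene known only by a clone name, on the other strand, shares 83 bases of exon with it and had 1889 counts in all, against 66580 for casq1b.

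casq2 (chromosome 9, 33286543 to 33296491, minus strand) was the 1 member with a log2 fold change below 0. Its level was 125, 69.0 and 75.5 CPM in the wild type libraries, by number, and 85.9, 82.9 and 71.9 CPM in the mutant ones. Wild type library 1 stood above all others, and the remaining 5 libraries lay close together. That log2 fold change was -0.16 (SE 0.22, 95% interval -0.63 to 0.31, edgeR adjusted p = 0.740), and without wild type library 1 its sign turned, to 0.14 (adjusted p = 0.670). The summed slow muscle markers were also highest in wild type library 1 (10461 CPM). The summed heart markers given above overlapped between the groups, and the part of either list in the casq2 level was not tested.

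Among the pump genes, atp2a1 (chromosome 3, 25950472 to 26028534, plus strand, 6914 bases of exon) differed most. Wild type libraries 1 to 3 held 839, 632 and 719 CPM of it, and mutant libraries 1 to 3 held 1318, 972 and 1035 CPM. The lowest mutant library was above the highest wild type library. The fold was 1.52 (95% interval 1.16 to 1.98), a log2 fold change of 0.60 (SE 0.18, edgeR adjusted p = 0.0839, two-sided exact permutation p = 0.1). It was called with no count filter (adjusted p = 0.0250) and without wild type library 1 (0.0425, where 4.61% of 14528 genes tested were called). Without wild type library 2 the edgeR adjusted p of atp2a1 was 0.322. DESeq2 gave an adjusted p of 0.0513 and the length correction a log2 fold change of 0.47 (edgeR adjusted p = 0.195). Of the 3 pump members together, per kilobase, atp2a1 made up 44.5% to 52.3% in wild type and 52.7% to 58.6% in mutant. With atp2a1l counted too, the share of atp2a1 was 3.30% to 5.98% in wild type and 4.26% to 6.77% in mutant, with overlap. The exons of atp2a1 share 1522 bases with those of rabep2 on the opposite strand, which had 1323 counts in all, against 108181 for atp2a1.

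atp2a2a (chromosome 8, 11649527 to 11707308, plus strand), the more abundant SERCA2 gene, had overlapping groups. Its level was 524, 465 and 386 CPM in the wild type libraries, by number, and 548, 472 and 546 CPM in the mutant ones. Wild type library 1 was above mutant library 2, and wild type library 3 was the lowest of all. It had a log2 fold change of 0.19 (SE 0.16, 95% interval -0.17 to 0.54, edgeR adjusted p = 0.578), so a fold of up to 1.46 lies within the interval.

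atp2a2b (chromosome 21, 17013931 to 17071908, plus strand) was the rarest member, with 63 to 106 counts in a wild type library and 81 to 116 in a mutant library. Scaled to depth this was 4.74, 4.84 and 3.60 CPM in the wild type libraries, by number, and 5.41, 4.89 and 6.22 CPM in the mutant ones. The groups did not overlap, but the highest wild type and the lowest mutant value, both of library number 2, nearly met. Its fitted log2 fold change was 0.32 (SE 0.20, 95% interval -0.11 to 0.76, edgeR adjusted p = 0.414), and 0.19 with the length correction (adjusted p = 0.676).

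**Figure D3:**
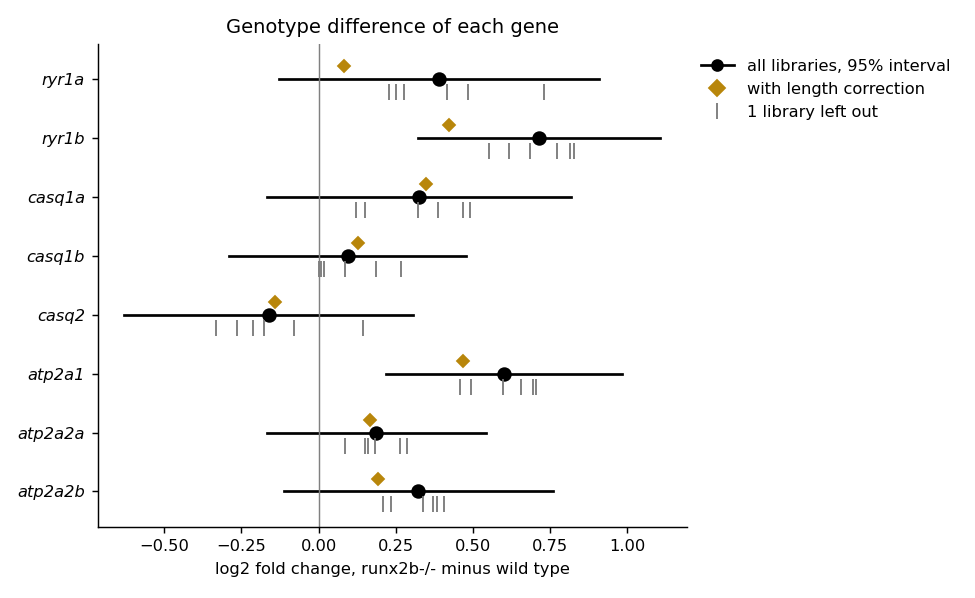
Log2 fold change of each of the 8 genes, runx2b-/- minus wild type, as the value from all 6 libraries with its 95% interval (black), the value with a correction for gene length (gold diamonds) and the 6 values with 1 library left out (grey ticks). The intervals of ryr1b and atp2a1 lie above 0, and the length correction moves ryr1b from 0.71 to 0.42 and ryr1a from 0.39 to 0.08. The intervals are not adjusted for the number of genes, and neither gene was called. An unadjusted edgeR p under 0.05 was reached by 19.4% of all tested genes.

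Summed per kilobase by step of the cycle, the release channels gave 47.0, 40.9 and 51.9 CPM per kilobase in the wild type libraries, by number, and 65.5, 69.5 and 90.7 in the mutant ones, most of it ryr1b. The summed calsequestrins overlapped (840 to 1304 in wild type, 1036 to 1587 in mutant). The summed pump members ran from 199 to 250.1 in wild type and from 257 to 325 in mutant, groups that did not overlap. These sums leave out ryr3 and atp2a1l, whose own groups overlapped. Wild type library 3 was above mutant library 1 for ryr3 (65.0 against 50.1 CPM per kilobase) and for atp2a1l (2951 against 2491). Separation of the groups is thus shown for the sums of members only.

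Ratios between members within a library do not depend on library scaling, and 7 of them were compared with two-sided exact permutation tests (smallest possible p = 0.1, Benjamini-Hochberg adjusted p of at least 0.525 for each). The SERCA2 genes together, set against atp2a1, gave 1.06, 1.25 and 0.913 in the wild type libraries, by number, and 0.707, 0.825 and 0.898 in the mutant ones. This was the only ratio of the 7 whose groups did not overlap, with a mean 0.756-fold that of wild type (difference -0.40 on the log2 scale, exact permutation p = 0.1, adjusted p = 0.525). When atp2a1l was added to the side of atp2a1, a choice made after seeing the data, the difference was -0.04 (exact permutation p = 0.9).

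Calsequestrin 1 set against the ryr1 pair, both per kilobase, gave 24.0, 19.97 and 24.6 in the wild type libraries, by number, and 15.4, 22.4 and 14.8 in the mutant ones. Mutant library 2 lay among the wild type values, and the difference of -0.40 on the log2 scale had an exact permutation p of 0.2 (adjusted p = 0.525). The ratio of ryr1a to ryr1b differed by -0.26 (exact permutation p = 0.6), and by 0.04 without wild type library 1. casq1a over casq1b differed by 0.22 (p = 0.4, exact), casq2 over the casq1 pair by -0.39 (p = 0.3, exact) and atp2a2a over atp2a2b by -0.14 (p = 0.3, exact), all with overlapping groups. The ryr1 pair over atp2a1 differed by 0.08 (exact permutation p = 0.9), and by 0.45 with atp2a1l added to the pump side (exact permutation p = 0.2).

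**Figure D4:**
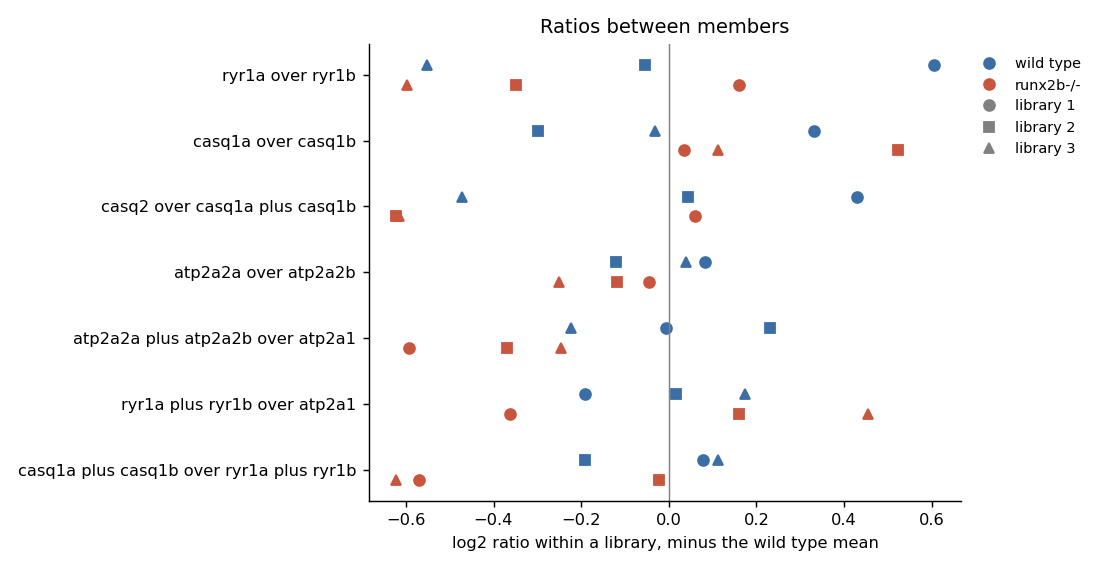
The 7 log2 ratios between members in each wild type (blue) and runx2b-/- (red) library, each drawn as its distance from the wild type mean of that ratio, with marker shapes for library numbers. The groups are apart only for the SERCA2 genes over atp2a1, where the mutant mean lies 0.40 below that of wild type (exact permutation p = 0.1, adjusted p = 0.525). With atp2a1l added to the side of atp2a1 that difference was -0.04 (exact permutation p = 0.9).

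The patterns of the members over the 6 libraries ranged from closely alike to unlike. Pearson's r of log2 CPM is given as a description over 6 libraries that differ in genotype and depth. It was highest for atp2a2a with atp2a2b (0.90) and with ryr1a (0.89), and was 0.82 for ryr1a with atp2a1. It was 0.42 for the ryr1 paralogs, 0.66 for casq1a with casq1b and -0.49 for casq1b with casq2. For each member the 2 named genes with the highest r were picked, and over only 6 libraries such a pick yields high values by itself. Among 3254 named genes of at least 10 CPM, the gene most like ryr1b was the titin gene ttn.1 (r = 0.999), followed by the adhesion gene bcam (r = 0.995). Like ryr1b, ttn.1 is long (88553 bases of exon), but bcam has only 2425 bases. Whether length has a part in the likeness was not tested. ttn.1 stood at a log2 fold change of 0.74 and, like ryr1b, just missed a call (edgeR adjusted p = 0.0504). The genes most like ryr1a were pik3r2 (r = 0.992) and synpo2lb (0.989), and those most like atp2a1 were qki2 (0.989) and leo1 (0.984), of which leo1 was called higher (1.55, edgeR adjusted p = 0.0382). For casq2 they were auh and phyh (r = 0.996 and 0.994), both enzymes of lipid or amino acid breakdown, and for atp2a2a pfkfb4a and ampd3a (0.990 and 0.982). casq1a was most like the collagen gene col5a1 (0.978) and arhgef11 (0.921), casq1b most like crnkl1 (0.959) and ybx1 (0.953), and atp2a2b most like sqrdl (0.965) and pkd2 (0.956).

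The genes that work beside the members were read from 7 lists. In the list for the triad and excitation-contraction coupling, 3 of 23 tested genes were called higher and none lower (1.76% and 1.62% of all tested genes). The median log2 fold change was 0.21, against -0.01 over all tested genes. Of the 23 genes, 13 had a log2 fold change above 0, against 49.2% of all tested genes. Mutant libraries lay wholly above wild type for 7 and wholly below for 5 (12.8% and 11.7% of all tested genes). cacna1sb (chromosome 8, 25748471 to 25789264), which encodes the pore and voltage sensor subunit of the muscle calcium channel, held 186, 166 and 203 CPM in the wild type libraries, by number, and 298, 294 and 317 CPM in the mutant ones. Its groups lay well apart (log2 fold change 0.71, SE 0.15, edgeR adjusted p = 0.0238). The call ended with the length correction (log2 fold change 0.60, adjusted p = 0.0501) and with library size only (0.68, 0.0626), and leaving out wild type library 2 or any 1 mutant library ended the call (0.0792 to 0.155). jph1a (chromosome 24, 14479412 to 14567773), for a junctophilin that ties the reticulum to the outer membrane, rose from 53.8 ± 5.92 to 95.5 ± 11.04 CPM (0.83, SE 0.16, adjusted p = 0.0165 by edgeR). Leaving out wild type library 2, mutant library 1 or mutant library 3 ended its call (0.0788 to 0.108). trdn (chromosome 20, 40247976 to 40328743), for triadin, which links calsequestrin to the channel, rose from 279 ± 50.05 to 512 ± 139 CPM (0.87, SE 0.21, edgeR adjusted p = 0.0441), a call kept when wild type library 3 was left out and ended by leaving out any other single library (0.0588 to 0.207). With limma voom (0.86, adjusted p = 0.0708) and with at least 50 counts in 3 libraries (0.86, 0.0573) trdn was not called either. The abundant junctophilin gene jph2 (0.07, SE 0.17) and the coupling gene stac3 (-0.26, SE 0.15) were not called. Nor was jph1b, the paralog of jph1a, which stood at 347 ± 54.4 CPM in wild type and 344 ± 44.9 CPM in mutant (-0.01, SE 0.17).

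In the store-operated entry list 2 of 6 tested genes were called higher and none lower (1.76% and 1.62% of all tested genes). The median was 0.47, against -0.01 over all tested genes. stim2a (chromosome 1, 13781848 to 13798179), for a sensor of calcium inside the reticulum, held 14.1, 11.9 and 11.02 CPM in the wild type libraries, by number, and 22.8, 24.2 and 26.2 CPM in the mutant ones. Every mutant value was above every wild type value, with a log2 fold change of 0.98 (SE 0.16, edgeR adjusted p = 0.0072), and the call ended only without mutant library 3 (0.0563). Its paralog stim2b (chromosome 7, 62009972 to 62129710) rose from 2.13 ± 0.606 to 4.39 ± 0.848 CPM (1.03, SE 0.26, edgeR adjusted p = 0.0484), a call kept without wild type library 1 and ended without any other single library (0.0589 to 0.192). It was also lost with upper-quartile scaling, library size only, at least 50 counts in 3 libraries, voom and the length correction (log2 fold changes of 0.98 to 1.03, adjusted p of 0.0561 to 0.107). The entry channel gene orai1a, which these sensors open, was at 0.37 (SE 0.27, adjusted p = 0.494 by edgeR).

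In the plasma membrane extrusion list 1 of 8 tested genes was called higher and 1 lower (1.76% and 1.62% of all tested genes). The median was 0.31, against -0.01 over all tested genes. The sodium-calcium exchanger gene slc8a3 (chromosome 13, 36070946 to 36164782) rose from 3.17 ± 0.396 to 7.44 ± 1.96 CPM (1.24, SE 0.23, edgeR adjusted p = 0.0119), with no call left when wild type library 2, mutant library 1 or mutant library 3 was dropped (0.0630 to 0.0804). The exchanger gene slc8a2a (chromosome 5, 36270562 to 36293181) fell, with 15, 41 and 10 counts in the wild type libraries, by number, and 2, 2 and 0 counts in the mutant ones. It passed the count filter only through its wild type libraries, so its p-value depends on the group where it is high. The ratio of mutant to wild type counts, scaled for depth, was 0.0658, with a 95% exact binomial interval of 0.0174 to 0.177 that covers counting error only (edgeR adjusted p = 0.0214). Dropping wild type library 2 or any 1 mutant library ended that call (0.0805 to 0.113), as did voom (-3.60, adjusted p = 0.0554).

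In the list of cytosolic calcium binding and calmodulin signalling, 2 of 18 tested genes were called higher and none lower (1.76% and 1.62% of all tested genes). The median was 0.09, against -0.01 over all tested genes. The calmodulin-dependent kinase gene camk2a (chromosome 21, 43901952 to 43957867) rose from 3.09 ± 0.913 to 6.31 ± 1.51 CPM (1.04, SE 0.25, edgeR adjusted p = 0.0441), and the call was lost on dropping any single library but wild type library 3 (0.0739 to 0.225), and with library size only, at least 50 counts in 3 libraries and voom (0.0556 to 0.0625). camk2d2 (chromosome 1, 13473854 to 13547621), a gene of the same kinase family, rose from 12 counts over the wild type libraries to 46 over the mutant ones (2.05, SE 0.51, edgeR adjusted p = 0.0479). This gene passed the count filter only through its mutant libraries, so its p-value depends on the group where it is high. camk2d2 lost its call without each single library (0.0603 to 0.217) and with upper-quartile scaling, library size only, DESeq2, voom and the length correction (0.0509 to 0.108).

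The remaining lists had no called gene by edgeR. Pump regulators and luminal proteins had 0 of 5 tested genes called (3.37% of all tested genes) and a median of -0.74 (-0.01 over all tested genes). The listed symbols sln, pln, mrln and hrc are not in the count table, so these genes were not tested. The median is the value of 1 gene, calr. An unadjusted p under 0.05 in edgeR was reached by 3 of the 5, against 19.4% of all tested genes. DESeq2 called 2 of these 3, both lower (4.78% of all tested genes), and limma voom 0 (2.47%). The 3 were the calreticulin genes calr3a (-0.78, SE 0.21, edgeR adjusted p = 0.0615), calr (-0.74, SE 0.22, 0.0856) and calr3b (-0.81, SE 0.24, 0.0911), luminal calcium-binding chaperones. srl, for sarcalumenin, was at 0.04 (SE 0.18). The calreticulin counts were uneven in wild type: calr3a held 117, 99.4 and 68.6 CPM in the wild type libraries, by number, and 49.8, 65.5 and 51.0 CPM in the mutant ones. For calr and calr3b the groups overlapped. Wild type library 3 was below mutant library 2 for calr (15.4 against 16.1 CPM) and for calr3b (24.4 against 25.4 CPM). Of 5 tested genes for other release channels and pumps 0 were called (1 at an unadjusted p under 0.05, 0 by DESeq2 and 0 by voom), with the SERCA3 gene atp2a3 at 0.43 (SE 0.19, edgeR adjusted p = 0.232) and itpr1a, for an inositol trisphosphate receptor, at -0.40 (SE 0.22, 0.359). Of 6 tested genes for mitochondrial calcium uptake 0 were called (0 at an unadjusted p under 0.05, 0 by DESeq2 and 0 by voom), with the uptake regulator gene micu2 at 0.15 (SE 0.17).

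**Figure D5:**
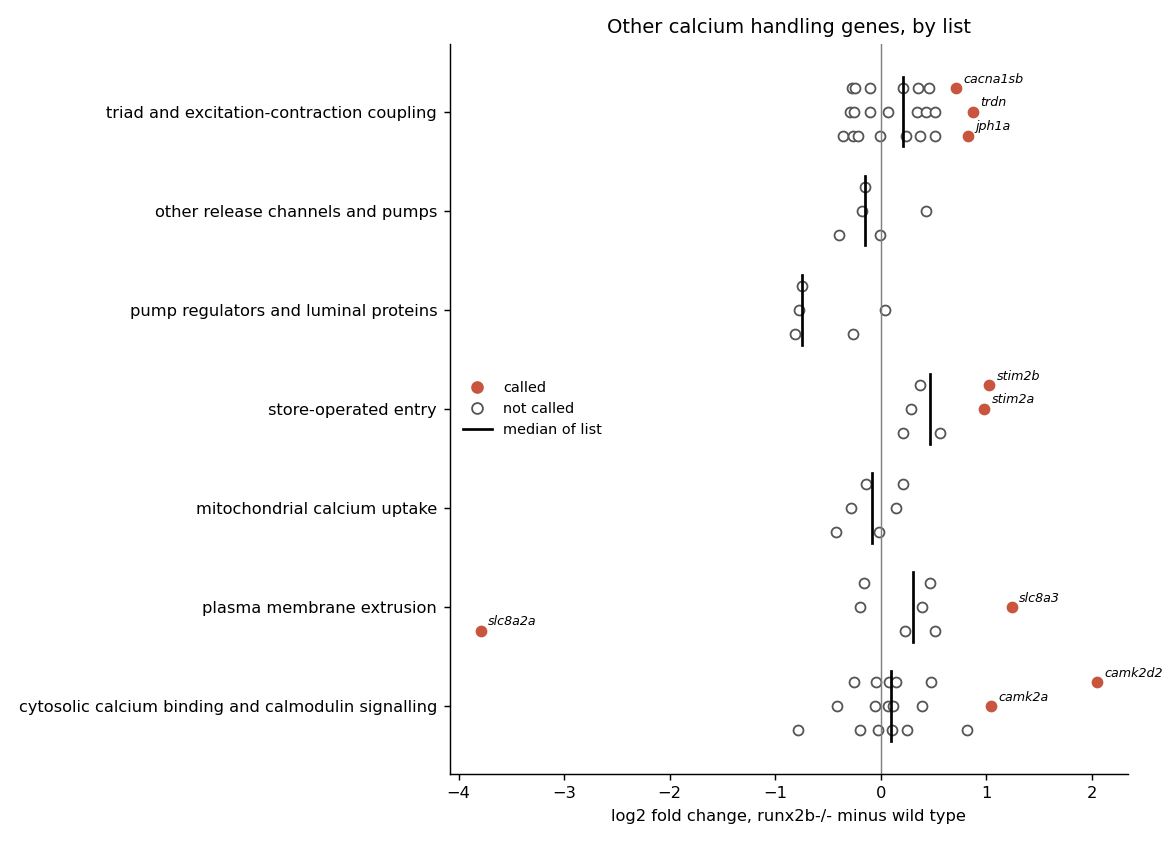
Log2 fold change, runx2b-/- minus wild type, of each tested gene in the 7 lists of other calcium handling genes (rows), with called genes filled and named, genes not called open, and the median of each list as a black bar. The called genes are 3 of the triad, 2 of store-operated entry, 2 of extrusion in opposite directions and 2 calmodulin-dependent kinase genes. Over all tested genes 1.76% were called higher and 1.62% lower. Of the called genes, slc8a2a and camk2d2 passed the count filter only through the group where each is high.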

How the data were processed

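RNA of tail muscle with its intermuscular bones was counted in 3 wild type and 3 runx2b-/- libraries, prepared with a stranded kit for polyadenylated RNA per the labels' protocols. The deposited table holds the authors' whole-number read counts per gene symbol, not normalized and not pooled, with merged exon lengths per the file headers. The aligner, counter, strand setting and annotation are not given in the sources used here. Without a stated strand setting, reads of a gene and its antisense partner cannot be told apart, and reads of near-identical paralogs can be split or lost. The submitters' processing notes name the build GRCz11, without tying it to this table, so positions are printed as the table gives them.

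Counts of all 25279 genes entered R 4.3.3 with edgeR 4.0.16. filterByExpr (minimum count 10, minimum total 15) kept 14107 genes, TMM (trimmed mean of M-values) scaled the libraries, and the robust quasi-likelihood test compared genotypes with no covariate. Adjustment followed Benjamini and Hochberg over the 14107 genes, and calls needed an adjusted p under 0.05. SE is the absolute log2 fold change over the square root of F, and 95% intervals use the test's own degrees of freedom. CPM is counts per 1000000 of the TMM-scaled library size. CPM per kilobase divides by the table's exon length. Ratios within a library were compared with two-sided exact permutation tests. Alternatives were other scalings and filters, DESeq2 1.42.0, limma 3.58.1 voom, a replicate block, a length correction (loess of each library's log2 CPM deviation on log2 length, span 0.5, as offsets) and leaving out each library. The tests were checked on simulated counts.

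Library totals lay between 17280098 and 20482003 counts, and the lowest count of a member in a library was 63, so counting error is small beside the spread between libraries for all members but atp2a2b. Members, lists and tests were chosen with earlier results of these data known. The rule for names took all 8 members, every called gene of each list and the 2 most abundant members of a list with no called gene. For each member it also took the 2 named genes of at least 10 CPM with the most similar pattern. The genes ryr3 (a list member), atp2a1l, calr, calr3b, stac3, jph1b, jph2, orai1a, s100a1 and single marker genes were named after their values were seen. Of the listed symbols outside the members, those the table does not carry were left out. 1 gene that the rule names is not reported here. The 2 single-cell samples were not analysed here.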

Additional observations from a re-analysis of the deposited data

How the results depend on the processing

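The replicate numbers of the labels did not pair the libraries: deviations from the group mean correlated at -0.06, 0.03 and 0.03 for libraries of the same number. With the replicate block 377 genes were called instead of 476, and 2 of the 8 members, ryr1b (log2 fold change 0.71, edgeR adjusted p = 0.0223) and atp2a1 (0.60, 0.0352); with block and length correction together 325 genes and 0 members were called.

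Over all genes 1161 were called with no filter, 348 with voom and 304 with at least 50 counts in 3 libraries, and 115 to 1225 when 1 library was left out (115 without mutant library 3, 1225 without wild type library 3). The number of members called was 2 with no filter (ryr1b at 0.70, atp2a1 at 0.59), 1 with DESeq2 (ryr1b at 0.71; 675 genes in all), 1 with library size only (ryr1b at 0.67; 361 genes in all), and 0 to 2 without single libraries. Leaving out 1 library gave log2 fold changes of 0.23 to 0.73 for ryr1a, 0.55 to 0.83 for ryr1b, 0.46 to 0.70 for atp2a1 and -0.33 to 0.14 for casq2, the 1 member whose sign turned. The cause was not tested.

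Store-operated entry had 1 called gene instead of 2 with upper-quartile scaling, library size only, 50 counts in 3 libraries, voom, the block, the length correction and both of these together. The calmodulin list had 1 with upper-quartile scaling and with the length correction, and 0 with library size only, 50 counts in 3 libraries, voom, the block, and block with length correction. The filter of 50 counts removed camk2d2 before the test. Pump regulators and luminal proteins had 3 with no filter and 2 with DESeq2. Extrusion had 1 with voom and 1 with 50 counts in 3 libraries, a filter that removed slc8a2a before the test. Without single libraries the triad list had 0 to 3, luminal proteins 0 to 3, store-operated entry 0 to 2, extrusion 0 to 2 and the calmodulin list 0 to 1.

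The ratio of ryr1a to ryr1b differed by -0.54 to 0.041 on the log2 scale without single libraries, and that of the ryr1 pair to atp2a1 by -0.10 to 0.31. As transcripts per 1000000 (TPM), the wild type mean levels were 6.84 for ryr1a, 82.3 for ryr1b, 1603 for casq1a, 448 for casq1b, 60.4 for casq2, 203 for atp2a1, 216 for atp2a2a and 1.26 for atp2a2b, in the same order as per kilobase. No scaling moved the median log2 fold change of all genes by over 0.1. The counts behind atp2a2b limit its precision, as do 3 libraries per group for every gene.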

Other observations

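The heart marker genes did not move together. myl7, myh6, nppa and cmlc1 had 9, 38, 4 and 10 counts in wild type library 3, at most 2 in another wild type library and 0 in every mutant library, while vmhc had 708 counts over the wild type and 745 over the mutant libraries, tnni1b 901 and 1115, and gata4 21 and 42. The troponin gene tnnt2a stood at 11.2, 12.8 and 16.4 CPM in wild type libraries 1 to 3 and at 0.373, 3.63 and 4.37 CPM in mutant libraries 1 to 3 (edgeR adjusted p = 0.208). The calcium-binding protein gene s100a1 had 25, 10 and 0 counts in wild type libraries 1 to 3 and 0 in each mutant library, too few for the count filter. These genes were chosen after their values were seen.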
